A study of Mus musculus with 241 samples.

Results

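Thymocytes that carry messenger RNA of both Bcl11b and Spi1 were described in 2 droplet (10x) single-cell libraries of mouse thymus. Bcl11b encodes a transcription factor that is switched on at commitment to the T lineage, and Spi1 encodes PU.1, an Ets-family factor of multipotent and myeloid progenitors that is shut off as pro-T cells commit. Cells at the DN2a stage, the CD25-bearing stage after the early T-cell progenitor (ETP), pass through the interval in which the transcripts of both factors can be present. The cells were chosen on their own transcripts: at least 1 unique molecular identifier (UMI, 1 counted mRNA molecule) each of Il2ra (which encodes CD25), Bcl11b and Spi1, and fewer than 3 UMIs summed over Cd3d, Cd3e and Cd3g. In all, 780 of 13312 kept cells met the rule, 353 of 4878 in library 1 and 427 of 8434 in library 2, and they are called Bcl11b+ Spi1+ cells here. A droplet holding a Bcl11b+ and a Spi1+ cell could meet the rule too, and no doublet caller was run. The Bcl11b+ Spi1+ cells were set against 1274 cells that met the rule except for having no Spi1 UMI (Bcl11b+ Spi1- cells) and 1921 that met it except for having no Bcl11b UMI (Bcl11b- Spi1+ cells). A further 1535 cells with Il2ra had neither (Bcl11b- Spi1- cells).

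Both 10x libraries came from the thymus of wild-type C57BL/6 mice, from live lineage-negative cells (7AAD-) with surface CD44 and Kit. The series also holds cells of the same strain and gate captured on a microfluidic chip (C1), and 12 bulk libraries from C57BL/6 mice homozygous for a yellow fluorescent Bcl11b reporter (Bcl11byfp/yfp). Of the bulk libraries, 3 are CD25+ YFP+ (Bcl11b+ DN2a) and 3 are CD25+ YFP- (Bcl11b- DN2a), all within the CD44+ Kit+ gate, and the other 6 are CD25- ETP populations. In both DN2a populations libraries 1 and 2 were made with NEBNext Ultra and library 3 with SMART-Seq v4. Per the labels the cells were untreated. Ages are not given, and nothing ties the libraries of a group to different animals. A p-value here weighs a difference against the scatter of these libraries alone, which can be technical. In the 10x tests that scatter was estimated over all genes together and was close to the counting error of UMIs. Those p-values therefore do not measure spread between animals.

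The 10x libraries held 43734920 and 55522900 UMIs in 5006 and 8867 barcodes. Cells were kept with 1000 or more detected genes and with mitochondrial UMIs below 10%, with a median of 8488.5 UMIs per cell in library 1 and 6137 in library 2. The libraries shared 57 barcodes by sequence, and 0 of these belonged to Bcl11b+ Spi1+ cells of both. The Bcl11b+ Spi1+ cells were deeper than the average cell, with medians of 10257 and 7769 UMIs. For every test between groups, the compared cells were therefore drawn to the depth profile of the Bcl11b+ Spi1+ cells, which gave medians of 10092 and 7847.5 UMIs for 263 and 454 Bcl11b+ Spi1- cells and 10025 and 7912 UMIs for 536 and 719 Bcl11b- Spi1+ cells.

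The transcripts that chose the cells are described without a test. Spi1 was close to the limit of detection: 69.1% and 74.7% of Bcl11b+ Spi1+ cells in libraries 1 and 2 had exactly 1 Spi1 UMI, and 11.3% and 5.39% had 3 or more. Bcl11b was counted more deeply, at 3 or more UMIs in 43.9% and 37.9% of the cells, and Il2ra at 3 or more UMIs in 74.2% and 60.2%. No Cd3 UMI was seen in 91.5% and 89.5% of the cells. Pooled levels, with UMIs scaled to a common total (CPM), describe the same genes. Bcl11b stood at 280 and 306 CPM in Bcl11b+ Spi1+ cells, against 343 and 328 CPM in the depth-matched Bcl11b+ Spi1- cells. Spi1 stood at 136.3 and 158.5 CPM in Bcl11b+ Spi1+ cells, against 168.99 and 191.7 CPM in Bcl11b- Spi1+ cells, and Il2ra at 494 and 436 CPM, against 498 and 448 CPM in Bcl11b+ Spi1- cells and 310 and 330 CPM in Bcl11b- Spi1+ cells. Just outside the rule lie the Bcl11b+ Spi1- cells, with 0 Spi1 UMIs, and just inside it the 244 and 319 cells with 1.

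Transcripts of the DN2a stage that the rule did not use were present. Kit, the stem cell factor receptor of the sorting gate, had 106.3 and 100.9 CPM in Bcl11b+ Spi1+ cells, against 92.3 and 103.8 CPM in Bcl11b+ Spi1- cells and 111.6 and 119.1 CPM in Bcl11b- Spi1+ cells. Cd44 had 38.2 and 38.8 CPM, against 29.6 and 42.2 CPM in Bcl11b+ Spi1- cells and 49.8 and 56.4 CPM in Bcl11b- Spi1+ cells. Kit missed the threshold against both groups (edgeR adjusted p = 0.928 and 0.0782), while Cd44 fell by 0.49 ± 0.11 (SE, log2 scale) against Bcl11b- Spi1+ cells (adjusted p = 0.000135). Markers of other cell types were mixed. Of 16 myeloid and granulocyte markers 10 and 9 were detected in Bcl11b+ Spi1+ cells, while Fcnb, Lcn2, S100a8, S100a9, Camp and Ngp, genes of maturing granulocytes, were at 0 in both libraries. The 13 mast, erythroid and megakaryocyte markers summed to 1238 and 799 CPM, of which the globin gene Hbb-bt made up 922 and 485 CPM and Cpa3 299.8 and 297 CPM, against sums of 1220 and 751 CPM in Bcl11b+ Spi1- cells and 1135 and 804 CPM in Bcl11b- Spi1+ cells. Gata1 was at 0 in library 1, and Car1, Pf4, Epor, Hba-a1 and Ms4a2 were at 0 in both. The 15 natural killer and innate lymphoid markers summed to 295 and 381 CPM, against 319 and 324 CPM in Bcl11b+ Spi1- cells and 316 and 368 CPM in Bcl11b- Spi1+ cells, with Xcl1, Klrb1c, Klrk1, Ncr1, Eomes, Tbx21 and Il2rb at 0 in the Bcl11b+ Spi1+ cells. Their part in the results was not tested.

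How often Spi1 was seen in a Bcl11b-expressing cell depended on depth. At full depth, 43.96% (95% exact binomial interval 40.5 to 47.5) and 34.1% (31.5 to 36.8) of Il2ra+ Bcl11b+ cells below the Cd3 limit had a Spi1 UMI. After each cell was thinned to 4000 UMIs before the rule was applied, the shares were 21.3% (of 478 cells, 17.7 to 25.3) and 19.4% (of 795 cells, 16.7 to 22.3). In droplet data free RNA gives UMIs in cells that do not express a gene, and its part in the Spi1 UMIs was not tested. For reference, the same share was taken in Bcl11b+ cells with 10 or more Cd3 UMIs, with or without Il2ra. Whether those cells still express Spi1 was not tested. The share there was 5.24% (of 286 cells, 2.96 to 8.50) and 7.50% (of 360 cells, 5.00 to 10.7) at 4000 UMIs. At full depth it was 7.66% of 431 and 6.76% of 754 cells, where the median depths were 4895 and 3864 UMIs. The share in Il2ra+ Bcl11b+ cells lay above that of the Cd3-high cells in each library, with intervals that did not overlap. It lay below that in Il2ra+ cells without Bcl11b, of which 35.7% and 33.8% had a Spi1 UMI at 4000 UMIs, and below that in Il2ra- Flt3+ cells, 36.8% and 40.99%. Flt3 marks the earliest thymic progenitors. Bcl11b itself was seen in 0.895% and 1.58% of Il2ra- Flt3+ cells at full depth. Intervals cover counting error only. At 4000 UMIs the Il2ra+ classes with and without Bcl11b were picked after thinning. The classes with 10 or more Cd3 UMIs and with Flt3 were picked at full depth, and only their Spi1 was counted after thinning.

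**Figure D1:**
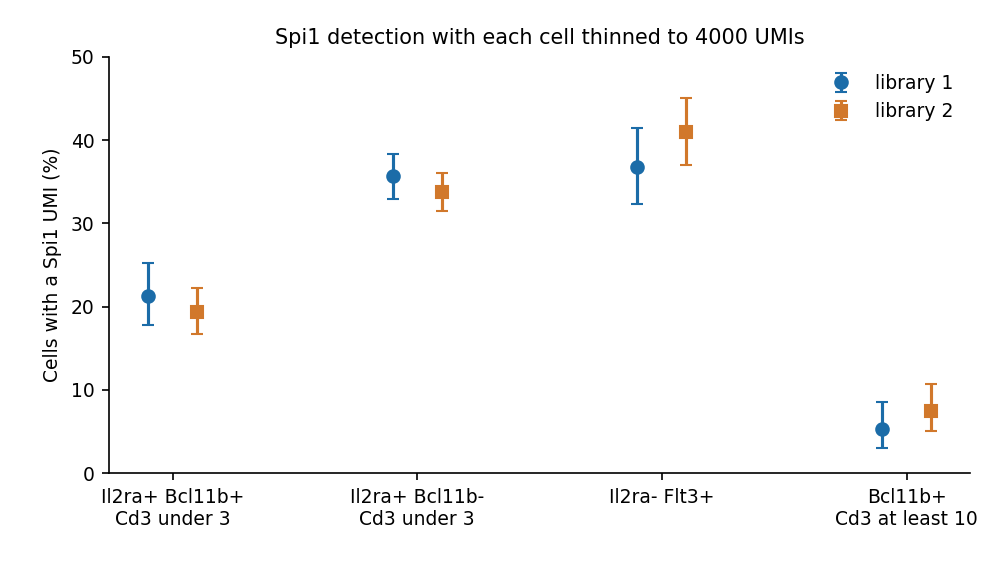
Share of cells with at least 1 Spi1 UMI (y axis, percent) by cell class (x axis) in each 10x library, after every cell was thinned to 4000 UMIs; points are shares and bars are exact binomial 95% intervals. Cells with Il2ra and Bcl11b stand at 21.3% and 19.4%, between Il2ra+ cells without Bcl11b (35.7% and 33.8%) and cells with 10 or more Cd3 UMIs (5.24% and 7.50%). The Il2ra+ classes were picked after thinning and the other classes at full depth.

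The comparison with Bcl11b+ Spi1- cells asked what else differs between CD25-bearing, Bcl11b-expressing cells with and without detected Spi1. Few genes did: 17 of 10104 genes tested were higher and 21 were lower in Bcl11b+ Spi1+ cells (38 genes, 0.376%) at an adjusted p under 0.05 in edgeR's quasi-likelihood test, which paired the groups within a library. The higher genes were led by Tyrobp and included Fcer1g, which encode signalling adaptors of innate immune receptors with the activating ITAM motif, Mef2c, a transcription factor of lymphoid and myeloid progenitors, and Mpo, the myeloperoxidase of granulocyte precursors. The lower genes included Thy1, a surface protein of T cells, Skap1 and Fyb, adaptors in T-cell receptor signalling, Bcl2, an inhibitor of apoptosis, and S-phase genes such as Rrm2. Both directions were small, mostly under 1 on the log2 scale. Most Bcl11b+ Spi1+ cells had a single Spi1 UMI, so the Bcl11b+ Spi1- group can hold cells whose Spi1 mRNA was not sampled. How far such cells lowered the number of calls and the folds was not tested.

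Tyrobp (mm10 chr7:30413760-30417585, plus strand) had 299 and 266 CPM in Bcl11b+ Spi1+ cells of libraries 1 and 2, against 185.01 and 194.6 CPM in Bcl11b+ Spi1- cells. Both Bcl11b+ Spi1+ values lie above both Bcl11b+ Spi1- values. The log2 fold change was 0.56 ± 0.06 (SE, n = 2 libraries in each group; edgeR adjusted p = 7.97e-18), and it passed the threshold in 17 of 18 alternative analyses, at 0.40 to 0.86 over the 18. At least 1 Tyrobp UMI was seen in 76.2% and 65.1% of Bcl11b+ Spi1+ cells, against 64.2% and 52.2% of all Bcl11b+ Spi1- cells. Fcer1g (chr1:171229572-171234365, minus strand) had 141.6 and 123.1 CPM, against 101.7 and 100 CPM in Bcl11b+ Spi1- cells, a log2 fold change of 0.39 ± 0.08 (adjusted p = 0.000322). The groups do not overlap, but the call was kept in 5 of 18 alternatives, and it was lost without library 1 (0.29, adjusted p = 0.449). Both genes are on a list of 8 ITAM adaptors and Fc receptors, all tested, of which 2 rose and 0 fell (median log2 fold change 0.26, against -0.0012 over all genes).

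Mef2c (chr13:83504034-83667080, plus strand) had 67.8 and 69.99 CPM in Bcl11b+ Spi1+ cells, against 43.999 and 45.8 CPM in Bcl11b+ Spi1- cells. The ranges do not overlap, and the log2 fold change was 0.60 ± 0.11 (adjusted p = 3.23e-05). The call was kept in 12 of 18 alternatives and was lost, among others, with DESeq2 and in both thinnings to 4000 UMIs. Mef2c was the 1 gene that rose among 18 tested of 21 listed regulators of progenitors, where 0 fell and the median was 0.12. Others of that list did not pass the test: Lmo2, a cofactor of the stem cell and progenitor program, had 12.9 and 7.31 CPM in Bcl11b+ Spi1+ cells, against 3.25 and 5.996 CPM in Bcl11b+ Spi1- cells (log2 fold change 1.08 ± 0.30, adjusted p = 0.0588). The homeobox gene Hhex had 102.6 and 103.15 CPM, against 89.4 and 87.5 CPM (adjusted p = 0.442), and Bcl11a, the paralog of Bcl11b, had 81.7 and 88.8 CPM, against 77.5 and 91.8 CPM. Of 26 listed genes linked to PU.1 in myeloid and progenitor cells, 23 were tested, and 3 rose (Tyrobp, Fcer1g and Mef2c) and 0 fell, with a median of 0.16. Higher calls made up 0.168% of all genes tested.

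Mpo (chr11:87793581-87804413, plus strand) had 40.3 and 33.4 CPM in Bcl11b+ Spi1+ cells, against 15.1 and 23.98 CPM in Bcl11b+ Spi1- cells. Its log2 fold change was 0.86 ± 0.15 (adjusted p = 2.35e-05), at 0.47 without library 1, where the call was lost (adjusted p = 0.655). Over the alternatives the Mpo call was kept in 10 of 18. A UMI of Mpo was seen in 20.96% and 20.6% of Bcl11b+ Spi1+ cells, against 11.6% and 12.99% of Bcl11b+ Spi1- cells. Other granule genes rested on very few cells. All 35 Elane UMIs of the Bcl11b+ Spi1+ cells of library 1 came from 1 cell, as did 39 of 53 UMIs of Prtn3 and 37 of 56 of Prss2. Elane and Prtn3 encode serine proteases of neutrophil granules, and Prss2 encodes a trypsinogen. Their log2 fold changes of 3.69 ± 0.69, 2.06 ± 0.41 and 2.17 ± 0.45 describe those cells. Prss2 was higher in library 1 only, at 14.8 CPM against 2.52 CPM in Bcl11b+ Spi1- cells. In library 2 it ran the other way, at 0.562 against 0.818 CPM. Elane fell short of the threshold without library 1 (1.51, adjusted p = 0.931), as did Prtn3 (0.44, adjusted p = 0.973). Without every cell that held a UMI of Elane, Prtn3, Ctsg, S100a8 or S100a9, Mpo kept a log2 fold change of 0.70 (adjusted p = 0.0236) and Tyrobp one of 0.58 (adjusted p = 1.802e-15). The 16 listed myeloid and granulocyte markers summed to 104.15 and 88.5 CPM in Bcl11b+ Spi1+ cells, with 10 and 9 of them detected, against 40.4 and 63.8 CPM in Bcl11b+ Spi1- cells, with 7 and 9 detected. Of 5 tested, 4 rose (median 1.40). Their part in the other differences was not tested.

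The remaining higher genes were Ccl5, a chemokine, and Lst1, Cd52, Ifitm1, Bex6, Sox4, Ccl9, Mtss1, Ctsg and Ccnb1. Ccl5 had 54.8 and 100.6 CPM in Bcl11b+ Spi1+ cells, against 43.3 and 51.8 CPM in Bcl11b+ Spi1- cells (log2 fold change 0.71 ± 0.10, adjusted p = 3.74e-08). Its call rested on library 2 and was lost without it (0.35, adjusted p = 0.561). Cd52, which encodes a surface glycoprotein of leukocytes, rose by 0.31 ± 0.06 (adjusted p = 0.00023). Lst1, a leukocyte-specific transcript, rose by 0.40 ± 0.08 (adjusted p = 0.00128). Sox4, a transcription factor of early lymphocytes, rose by 0.16 ± 0.04 (adjusted p = 0.00819). Without library 1 the calls of Cd52 (0.22, adjusted p = 0.486) and Lst1 (0.34, adjusted p = 0.439) were lost, and that of Sox4 was lost without either library (0.19 without library 1 and 0.14 without library 2, adjusted p = 0.0789 and 0.324).

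Among lower genes, Skap1 (chr11:96464593-96759130, plus strand) had 39.02 and 35.7 CPM in Bcl11b+ Spi1+ cells, against 58.4 and 61.9 CPM in Bcl11b+ Spi1- cells, a log2 fold change of -0.71 ± 0.12 (adjusted p = 6.48e-06). Thy1 (chr9:44043384-44048579, plus strand) had 81.5 and 93.9 CPM, against 130 and 114.2 CPM (-0.47 ± 0.08, adjusted p = 9.41e-06). Bcl2 had 63.5 and 82.9 CPM, against 91.2 and 114.7 CPM (-0.50 ± 0.09, adjusted p = 1.8e-05). All 3 were lower in both libraries, without overlap between the groups. Skap1, Thy1 and Bcl2 kept their calls in 13, 12 and 14 of 18 alternatives. The call of Skap1 was lost without library 2 (-0.58, adjusted p = 0.103) and that of Thy1 without library 1 (-0.30, adjusted p = 0.441). Of 18 tested genes of T-cell receptor signalling, 2 fell (Skap1 and Fyb) and 0 rose, with a median of -0.02. Fyb lost the call without either library (-0.27 without library 1 and -0.22 without library 2, adjusted p = 0.182 and 0.324) and kept it in 9 of 18 alternatives. Of 12 tested genes of the receptor complex and its recombination 1 fell (Thy1), with a median of -0.09. Lower calls made up 0.208% of all genes tested.

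Regulators of the T lineage showed no called difference. Among 16 tested of 21 listed, 0 were called (median -0.08), while 4 had an unadjusted p under 0.05. Tcf7, which encodes the Notch-induced factor TCF-1, had 255 and 277 CPM in Bcl11b+ Spi1+ cells, against 225.4 and 286 CPM in Bcl11b+ Spi1- cells (log2 fold change 0.05 ± 0.06, adjusted p = 0.924). Gata3, a factor needed for T-lineage entry, had 71.2 and 70.3 CPM, against 91.97 and 73.3 CPM (-0.23 ± 0.09, adjusted p = 0.499). Il7r, the interleukin-7 receptor chain, had 104.7 and 97.2 CPM, against 106.03 and 105.2 CPM. The 8 lists without a called gene, among them progenitor surface proteins, Notch response, interferon response and markers of committed T cells, held 64 tested genes together, of which 10 had an unadjusted p under 0.05.

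A few genes of DNA replication fell. Rrm2, the small subunit of ribonucleotide reductase, had 72.8 and 73.9 CPM, against 108.9 and 102.7 CPM in Bcl11b+ Spi1- cells (-0.53 ± 0.09, adjusted p = 1.89e-06). Of 24 S-phase genes, all tested, 4 fell (Rrm2, Slbp, Uhrf1 and E2f8) and 0 rose, with a median of -0.12. Slbp, Uhrf1 and E2f8 lost the call without library 1, at log2 fold changes of -0.22, -0.26 and -0.59. Of 24 genes of the G2 phase and mitosis 1 rose, the cyclin gene Ccnb1, and 0 fell, with a median of 0.01. The Ccnb1 call was kept in 1 of 17 alternatives.

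The number of calls depended on the test and the cells. The compared cells were drawn at random within depth bins. With another seed for that draw, 9 of 30 genes called and named by rule lost the call, among them Fcer1g, Ifitm1 and Uhrf1. DESeq2, with the same terms, called 1 gene, Tyrobp, and without the pairing by library edgeR called 0 genes (321 at an unadjusted p under 0.05). Cells above the 95th percentile of UMIs in their library made up 11.9% and 13.8% of Bcl11b+ Spi1+ cells, against 5.11% and 5.34% of Bcl11b+ Spi1- cells before matching, and without them 59 genes were called, with Tyrobp at 0.60. With no Cd3 limit 5.38% of genes were called, and without cells above the median cell-cycle share 1 gene was. Without library 1, 18 genes were called. A fit without a library leaves 1 sum in each group compared, assumed to vary like the sums of the other groups, which alone give the spread (1 residual degree of freedom). In such fits, of 30 genes called and named by rule or in the text, 24 lost the call without library 1 and 11 without library 2, while Tyrobp, Mef2c, Bcl2 and Rrm2 kept it in both cases.

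**Figure D2:**
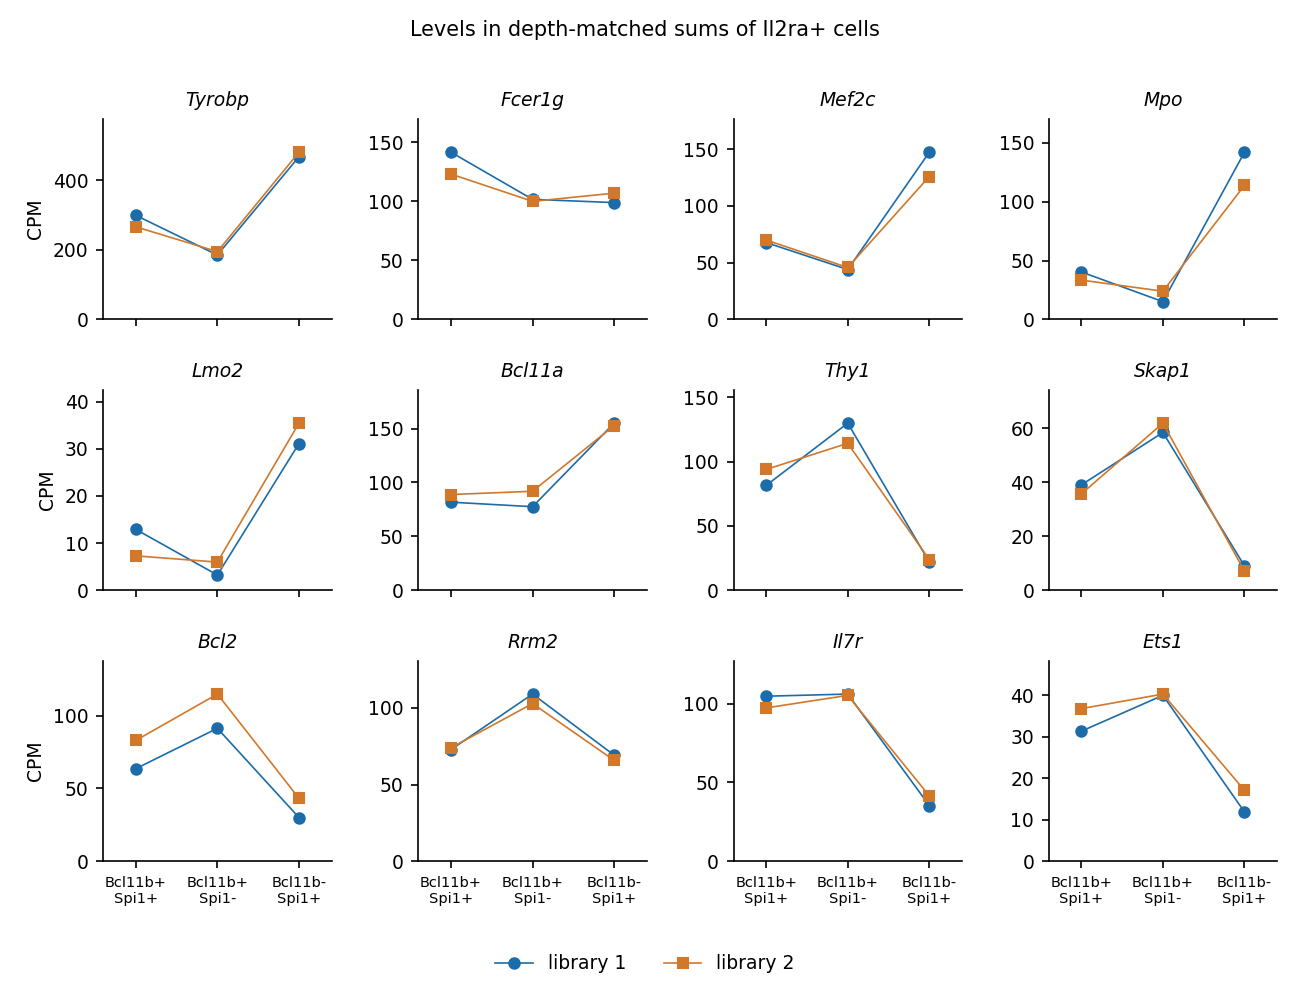
Levels of 12 genes (y axis, CPM, a linear scale from 0 in each panel) in depth-matched sums of Bcl11b+ Spi1+, Bcl11b+ Spi1- and Bcl11b- Spi1+ cells (x axis); each point is 1 of the 2 libraries, and lines join the points of a library. For Tyrobp, Mpo, Skap1 and Thy1 the Bcl11b+ Spi1+ cells lie between the other groups in both libraries, at 299 and 266 CPM for Tyrobp and 39.02 and 35.7 CPM for Skap1, and Fcer1g is highest in them.

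The promoters of Mpo and Mef2c are shown because both genes rose and both windows hold GAGGAAG, a motif containing the GGAA core that Ets factors, PU.1 among them, recognise. Each is the 250 bases before a RefSeq gene start on GRCm38.p6, plus strand, 5′ to 3′, with the motif in capitals.
Mpo, chr11:87793534-87793783: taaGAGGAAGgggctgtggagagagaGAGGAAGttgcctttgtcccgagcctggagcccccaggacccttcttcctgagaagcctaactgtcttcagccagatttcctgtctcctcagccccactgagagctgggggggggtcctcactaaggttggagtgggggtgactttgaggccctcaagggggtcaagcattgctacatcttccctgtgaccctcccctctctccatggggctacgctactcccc
Mef2c, chr13:83523406-83523655: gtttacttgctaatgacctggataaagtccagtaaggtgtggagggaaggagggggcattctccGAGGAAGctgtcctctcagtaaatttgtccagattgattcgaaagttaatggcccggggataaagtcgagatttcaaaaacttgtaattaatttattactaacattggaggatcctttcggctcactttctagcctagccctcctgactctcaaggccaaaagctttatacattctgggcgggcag
The Mpo window holds the motif at 2 places, the first starting 247 bases before the RefSeq start of the window, and the Mef2c start shown is 1 of 3 annotated, of which the other 2 windows hold no match. The RefSeq start used for the Mpo window lies downstream of the start given above, so most of that window falls within the interval given for Mpo. Searched on both strands, GAGGAAG occurs in 3486 of 32851 windows (10.61%). It occurs in 7 of the 14 windows of genes called higher and in 1 of the 17 windows of genes called lower. By gene, these are 7 of the 12 called higher that have a window (Ctsg, Elane, Mef2c, Mpo, Prss2, Prtn3 and Sox4). Of the 14 genes called lower that have one, the match is in Bcl2. The calls of Elane, Prtn3 and Prss2 rest on very few cells, and that of Ctsg was kept in 4 of 17 alternatives. The longer form GAGGAAGT, which overlaps the first, occurs in 802 windows (2.441%). It is in 3 of the 14 windows of genes called higher (Elane, Mpo and Prtn3) and in 0 of the 17 of genes called lower. A match is a string of letters in these windows and not a measured binding site.

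The comparison with Bcl11b- Spi1+ cells asked how Spi1-expressing DN2a cells with detected Bcl11b differ from those without it. Exactly 1 Bcl11b UMI was seen in 32.3% and 38.2% of Bcl11b+ Spi1+ cells. The Bcl11b- Spi1+ group can therefore hold cells whose Bcl11b mRNA was not sampled, and their part in the calls and folds was not tested. The Bcl11b+ Spi1+ sums serve in both comparisons, so the results are not independent. Here 892 of 10104 genes (8.83%) were called, 418 higher (4.14%) and 474 lower (4.69%) in Bcl11b+ Spi1+ cells. Il7r, 8 of 18 tested genes of T-cell receptor signalling and 7 of 16 T-lineage regulators rose, while Mpo, Cd34 and 10 of 18 progenitor regulators fell. DESeq2 called 2.14% of the genes, and edgeR without the pairing by library called 1.42%. Without library 1 the share was 2.74% and without library 2 it was 3.59%.

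Of the 16 tested T-lineage regulators 7 rose and 0 fell (median 0.33, against 0.00075 over all genes): Tcf7, Gata3, Ets1, Tcf12, Runx1, Myb and Id3. Tcf7 stood at 255 and 277 CPM in Bcl11b+ Spi1+ cells, against 187.5 and 220 CPM in Bcl11b- Spi1+ cells (0.35 ± 0.05, adjusted p = 1.73e-09). Gata3 stood at 71.2 and 70.3 CPM, against 52.4 and 46.3 CPM (0.48 ± 0.09, adjusted p = 7.41e-06). Ets1, an Ets factor of lymphocytes, stood at 31.4 and 36.8 CPM, against 11.9 and 17.1 CPM (1.196 ± 0.15). In each of these the groups do not overlap. Of 18 tested progenitor regulators 10 fell and 1, Zeb2, rose (median -0.70). Lmo2 stood at 12.9 and 7.31 CPM in Bcl11b+ Spi1+ cells, against 31.1 and 35.4 CPM in Bcl11b- Spi1+ cells (-1.73 ± 0.17, adjusted p = 1.1e-22). Bcl11a stood at 81.7 and 88.8 CPM, against 154.95 and 152.7 CPM (-0.88 ± 0.07), and Hhex at 102.6 and 103.15 CPM, against 168.6 and 171.3 CPM (-0.76 ± 0.06). Mef2c fell by 1.02 ± 0.07, and Irf8, an interferon-regulatory factor of myeloid and dendritic cells, fell by 1.33 ± 0.18. The others that fell were Meis1, Hoxa9, Mycn, Gata2 and Hmga2. Without library 1 the calls of Runx1 (0.21), Mycn (-0.17) and Meis1 (-1.10) were lost, without library 2 that of Hmga2 (-1.72), and without either library those of Id3, Zeb2 and Gata2.

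Surface and signalling genes followed. Il7r stood at 104.7 and 97.2 CPM in Bcl11b+ Spi1+ cells, against 35.4 and 41.5 CPM in Bcl11b- Spi1+ cells (1.36 ± 0.09, adjusted p = 3.13e-47). Thy1 stood at 81.5 and 93.9 CPM, against 22.03 and 23.9 CPM (1.90 ± 0.10), and Skap1 at 39.02 and 35.7 CPM, against 9.06 and 7.12 CPM (2.17 ± 0.16). Each was higher with detected Bcl11b than without it in both libraries, with no overlap between the groups. Of 18 tested signalling genes 8 rose and 0 fell (median 0.37), among them Lat (0.87 ± 0.06), the membrane scaffold of the receptor pathway, and Lck (0.36 ± 0.04), its proximal kinase. Of 12 receptor-complex and recombination genes 6 rose (Cd247, Rag2, Cd28, Themis, Thy1 and Dntt), 1 fell (Cd27) and the median was 0.85. Of 11 tested genes of the Notch response 5 rose and 2 fell (median 0.35). The risers were Gata3, Tcf7, Il7r, Notch3 and Fgf3, a growth factor gene whose call was lost without library 1 (0.29, adjusted p = 0.161), and the fallers were Dtx1 and Nrarp, both feedback regulators of Notch. Notch1 itself did not pass the test, at 136.06 and 163.3 CPM, against 130 and 150 CPM.

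Of 13 tested progenitor surface genes 6 fell and 3 rose (median -0.26). Cd34, a sialomucin of stem and progenitor cells, fell by 1.09 ± 0.08 and Cd7 by 1.22 ± 0.11. Flt3 was near its floor, at 1.58 and 1.97 CPM in Bcl11b+ Spi1+ cells, against 5.86 and 6.61 CPM in Bcl11b- Spi1+ cells (-1.82 ± 0.40, adjusted p = 0.000157), and missed the threshold without either library (adjusted p = 0.0678 without library 1 and 0.0535 without library 2). Cd24a and Il7r were among those that rose. Among called genes with a mean of at least 5 log2 CPM and the same direction in both libraries, Mpo fell the most, at 40.3 and 33.4 CPM, against 141.98 and 113.9 CPM (-1.82 ± 0.09, adjusted p = 6.24e-81). The myeloid and granulocyte markers summed to 104.15 and 88.5 CPM in Bcl11b+ Spi1+ cells, against 317 and 195.7 CPM in Bcl11b- Spi1+ cells, and all 5 tested fell.

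PU.1-linked genes moved mainly downwards: of 23 tested, 9 fell and 1 rose (median -0.36). Tyrobp stood at 299 and 266 CPM, against 467 and 480 CPM in Bcl11b- Spi1+ cells (-0.78 ± 0.05, adjusted p = 3.9e-57, kept in 18 of 18 alternatives). Cd33, Fcgr3, Irf8, Bcl11a, Mef2c, Ctss, Cd53 and Csf2rb were the others that fell. The riser was Fcer1g, at 141.6 and 123.1 CPM in Bcl11b+ Spi1+ cells, against 98.98 and 106.9 CPM in Bcl11b- Spi1+ cells (0.33 ± 0.07, adjusted p = 4.4e-05). This call was kept in 11 of 18 alternatives and lost without library 1. Fcer1g was thus called higher in Bcl11b+ Spi1+ cells in each comparison, while its partner adaptor gene Tyrobp lay between the other groups. In the cell-cycle lists 6 of 24 S-phase genes rose (median 0.13) and 2 of 24 G2 and mitosis genes rose (median 0.12), with 0 falls in either. Over all genes tested 4.14% were called higher. Without either library the G2 and mitosis risers Tpx2 (0.27 without library 1 and 0.45 without library 2) and Mki67 (0.33 and 0.22) lost the call. So did the S-phase risers Pcna (0.23 and 0.18), Ung (0.26 and 0.26) and Uhrf1 (0.21 and 0.29), and Cdc6 (0.48) lost it without library 1.

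Lists of other cell types held small numbers of tested genes in this comparison. For mast, erythroid and megakaryocyte markers 1 rose, the mast cell carboxypeptidase gene Cpa3 (0.91 ± 0.05), and 3 fell, of 5 tested. For natural killer and innate lymphoid markers 2 rose and 2 fell of 7, with Gzma, a granzyme gene, at 17.9 and 19.1 CPM, against 3.38 and 4.91 CPM (2.11 ± 0.23). Of 6 tested markers of B cells and dendritic cells 2 fell, of 4 markers of committed T cells 2 rose, of 2 stromal and macrophage markers 1 rose, and of 14 interferon-response genes 2 fell. Several of these calls rested on both libraries. Pecam1, the stromal and macrophage riser (0.17 without library 1 and 0.33 without library 2), Nkg7 (-0.11 and -0.21), Zbtb16 (1.12 and 0.66), Gata2 (-2.74 and -3.31) and Mcpt8 (-1.21 and -1.35) lost the call without either. Isg15 lost it without library 1 (-0.049), and Hbb-bt (-0.072) and Id2 (-0.61) without library 2.

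Among themselves, the Bcl11b+ Spi1+ cells differed with the number of Bcl11b UMIs, a description with no test, since the rule used that count. Tyrobp had 406, 354 and 198.8 CPM in cells with 1, 2 and 3 or more Bcl11b UMIs in library 1, and 279, 332 and 215.3 CPM in library 2. Mpo had 81.98, 39.8 and 11.96 CPM in library 1, and 48.7, 37.7 and 16.9 CPM in library 2. In library 1, 30 Mpo UMIs came from 1 cell, and the 3 cells with the most held 28.1% of all Mpo UMIs. Thy1 ran the other way, at 52.2, 61.5 and 111.1 CPM, and at 66.9, 93.6 and 118.9 CPM, and so did Skap1, at 17.4, 37.4 and 54.7 CPM, and at 25.9, 35.3 and 45.04 CPM. Lmo2 was at 28.98, 10.8 and 2.85 CPM in library 1, and at 7.61, 10.9 and 4.93 CPM in library 2, so its order differed between libraries, as did that of Tyrobp. Tcf7 was nearly level, at 244, 247 and 266 CPM, and at 278, 285 and 273 CPM. Split by Spi1 instead, cells with 1 UMI and with 2 or more had 277 and 341 CPM of Tyrobp in library 1 and 247 and 316 CPM in library 2. They had 81.3 and 56.2 CPM of Rrm2 in library 1 and 79.9 and 58.2 CPM in library 2. Median depth was 9995.5 UMIs for cells with 1 Spi1 UMI and 10727 for those with more in library 1, and 7617 and 8384.5 in library 2.

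**Figure D3:**
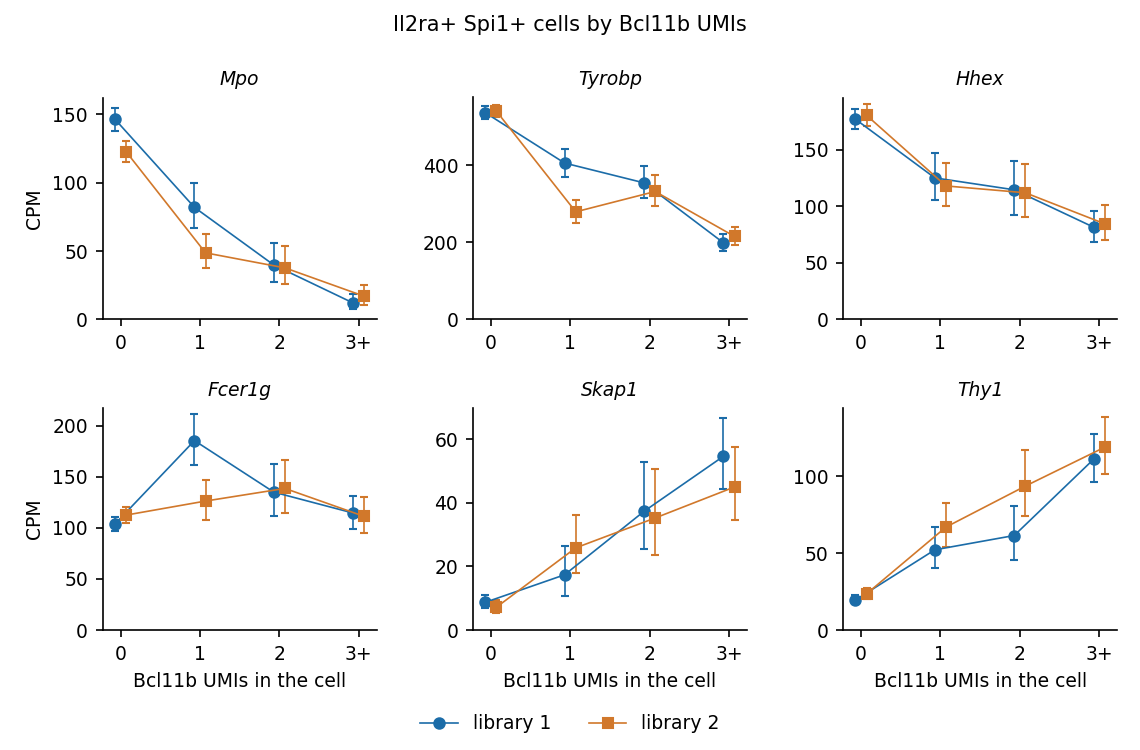
Levels of 6 genes (y axis, CPM) in Bcl11b+ Spi1+ cells with 1, 2 and 3 or more Bcl11b UMIs, and in all Bcl11b- Spi1+ cells (0 UMIs), along the x axis, per library, with exact Poisson 95% intervals. In library 1, Mpo goes down across the classes (81.98, 39.8 and 11.96 CPM) and Skap1 goes up (17.4, 37.4 and 54.7 CPM).

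Across many genes, the Bcl11b+ Spi1+ cells lay nearer to Bcl11b+ Spi1- than to Bcl11b- Spi1+ cells. The scale was set by 700 genes with a mean of at least 5 log2 CPM that differed, in the same direction in both libraries, between Bcl11b- Spi1+ and Bcl11b+ Spi1- cells; 1261 of all genes (12.5%) were called there, 6.46% higher and 6.02% lower in Bcl11b- Spi1+ cells. With 0 at the Bcl11b+ Spi1- level and 1 at the Bcl11b- Spi1+ level, the median position of Bcl11b+ Spi1+ cells was 0.26, with quartiles of 0.10 and 0.45. It was 0.31 in library 1 and 0.22 in library 2. Of the 700 genes 588 lay between the other groups, 547 were nearer to the Bcl11b+ Spi1- level, 14.6% lay beyond that level and 10 genes lay beyond the Bcl11b- Spi1+ level. The median was 0.26 for the 358 genes higher in Bcl11b- Spi1+ cells and 0.27 for the 342 lower there, so both sets lay at about the same position. These positions are a description, since the cells were chosen on Bcl11b and Spi1. The 700 genes were called between the same groups that set the scale. That choice partly fixes how many genes place the Bcl11b+ Spi1+ cells between them. Cells at the 0 end can carry Spi1 mRNA that was not sampled, and cells at the 1 end Bcl11b mRNA that was not sampled. The part of either in the position was not tested.

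Single cells were placed with the log2 ratio of UMIs summed over the 358 genes to UMIs summed over the 342 genes, after thinning to 4000 UMIs. The median was 2.11 and 1.99 in 350 and 418 Bcl11b+ Spi1+ cells, against 2.01 and 1.95 in Bcl11b+ Spi1- cells and 2.55 and 2.36 in Bcl11b- Spi1+ cells. In Bcl11b- Spi1- cells it was 2.48 and 2.30, so with or without Bcl11b the groups with and without a Spi1 UMI lay close together. Of the Bcl11b+ Spi1+ cells, 35.4% and 44.3% lay at or below the median of Bcl11b+ Spi1- cells, and 8.29% and 12.7% at or above the median of Bcl11b- Spi1+ cells. The distributions of Bcl11b+ Spi1+, Bcl11b+ Spi1- and Bcl11b- Spi1+ cells overlapped in each library, with standard deviations over cells of 0.304 and 0.313 in Bcl11b+ Spi1+ cells. Both gene sets were chosen on the difference between the Bcl11b- Spi1+ and Bcl11b+ Spi1- groups. The gap between the medians of those groups is therefore partly set by that choice.

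**Figure D4:**
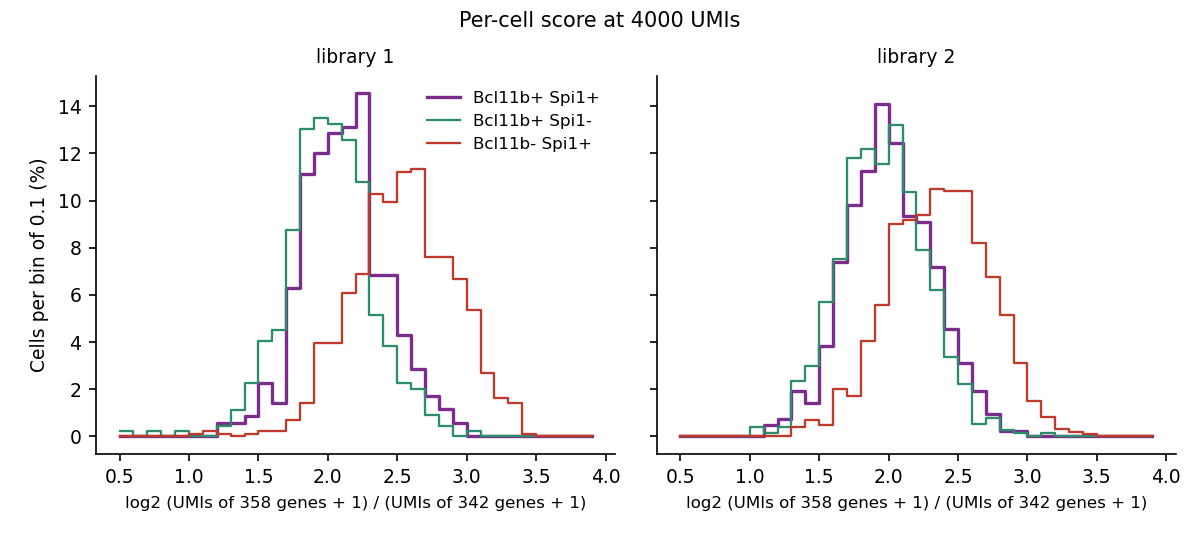
Distribution over cells (y axis, percent of cells in the group) of the log2 ratio of the 2 summed gene sets (x axis) at 4000 UMIs, for each library. The curve of Bcl11b+ Spi1+ cells (medians 2.11 and 1.99) lies close to that of Bcl11b+ Spi1- cells (2.01 and 1.95) and to the left of that of Bcl11b- Spi1+ cells (2.55 and 2.36). The gene sets were chosen on the difference between Bcl11b+ Spi1- and Bcl11b- Spi1+ cells.

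The bulk libraries gave the same genes in samples the rule did not use, sorted by the Bcl11b reporter protein rather than by transcript. Between 26149328 and 38541725 exon reads lay behind each DN2a library, as worked back from its FPKM values. In bulk RNA fewer cells of a type and less RNA per cell cannot be told apart. Bcl11b (chr12:107910403-108003602, minus strand) had 41.02, 44.3 and 16.1 FPKM in Bcl11b+ DN2a libraries 1, 2 and 3, against 6.11, 3.08 and 0.596 FPKM in Bcl11b- DN2a libraries. Spi1 (chr2:91082390-91115756, plus strand) had 25.8, 13.2 and 19.1 FPKM in Bcl11b+ DN2a, against 62.4, 50.8 and 51.97 FPKM in Bcl11b- DN2a, and its log2(FPKM + 1) fold change was -1.50 ± 0.20 (limma adjusted p = 0.00237). All 3 Bcl11b+ libraries thus held Spi1 reads, below every Bcl11b- library.

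Of 12112 genes tested in bulk, 338 were called (2.79%), with 1.15% of genes higher and 1.64% lower in Bcl11b+ DN2a. With the library number as a block, 850 were called, 365 higher and 485 lower. Without the kit as a term 4 genes were called, and leaving out 1 of the 6 libraries gave 1.33% to 2.11% of genes, with the lowest share without Bcl11b- library 1. Tyrobp had 43.5, 23.4 and 62.2 FPKM in Bcl11b+ DN2a, against 168.98, 118.6 and 223.7 FPKM in Bcl11b- DN2a (-2.02 ± 0.22, adjusted p = 0.000693). Mpo had 12.9, 7.40 and 21.8 FPKM, against 127.2, 138.1 and 153.99 FPKM (-3.34 ± 0.20, adjusted p = 1.82e-05). Neither gene's groups overlap. Skap1 had 26.6, 25.1 and 55.4 FPKM in Bcl11b+ DN2a, against 4.38, 2.10 and 6.81 FPKM in Bcl11b- DN2a (2.76 ± 0.22, adjusted p = 8.66e-05). Thy1 had 130, 92.8 and 13.01 FPKM, against 33.7, 13.6 and 2.93 FPKM (2.14 ± 0.33, adjusted p = 0.00488), with groups that overlap across kits and not within a kit. Fcer1g had 17.99, 17.6 and 69.3 FPKM, against 28.96, 27.4 and 93.7 FPKM, and was lower in each of the 3 same-numbered pairs. It missed the threshold (-0.57 ± 0.15, adjusted p = 0.0795) and passed it with the library number as a block (-0.57 ± 0.12, adjusted p = 0.0193).

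The genes called in the 10x comparisons were looked up in bulk. Over all 12112 bulk genes 7067 had a negative and 5045 a positive fold change, with 1.64% called lower and 1.15% called higher. Of the 17 genes higher in Bcl11b+ Spi1+ than in Bcl11b+ Spi1- cells, all tested in bulk, 15 had a negative fold change with the reporter, 8 fell (Tyrobp, Mpo, Mef2c, Cd52, Ifitm1, Lst1, Bex6 and Ctsg) and 0 rose, with a median of -0.999, against -0.04 over all bulk genes. Of the 21 genes lower in Bcl11b+ Spi1+ cells 19 were tested in bulk, all 19 had a positive fold change, and 10 rose (Skap1, Thy1, Bcl2, Fyb, Lgals1, Rrm2, Slbp, Fam169b, Fbxo5 and Rgcc) and 0 fell, with a median of 0.71. Of the 418 genes higher than in Bcl11b- Spi1+ cells 396 were tested, of which 82 rose and 0 fell (median 0.33), and of the 474 lower genes 460 were tested, of which 23.04% fell and 0 rose (median -0.35).

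**Figure D5:**
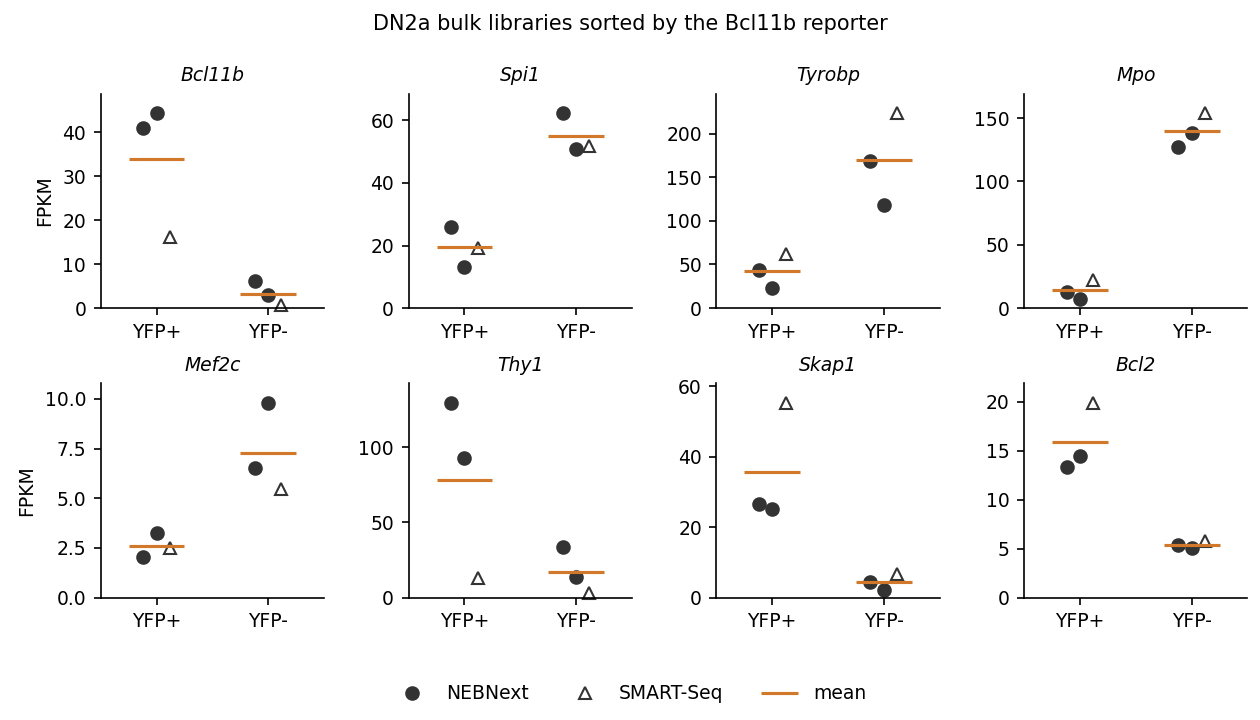
Levels (y axis, FPKM, a linear scale from 0) of 8 genes in Bcl11b+ (YFP+) and Bcl11b- (YFP-) DN2a bulk libraries (x axis); each point is a library, filled for NEBNext and open for SMART-Seq, and the line is the mean of 3. Spi1 has 25.8, 13.2 and 19.1 FPKM in the Bcl11b+ libraries, against 62.4, 50.8 and 51.97 FPKM in the Bcl11b- libraries.

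The C1 cells were counted without UMIs, and 97.8% of them had at least 1000 genes above 1 FPKM and were kept. With more than 1 FPKM in place of a UMI, and with Cd3d, Cd3e and Cd3g not all above 1 FPKM, 21 cells (9.46% of those kept, 5.95 to 14.1) had Il2ra, Bcl11b and Spi1. Of 29 Il2ra+ Bcl11b+ C1 cells, 72.4% (52.8 to 87.3) had Spi1, and of 94 Il2ra+ Bcl11b- cells 88.3% (80.03 to 94.01) had it. Only 1 of 66 Il2ra- Flt3+ cells had Bcl11b. The labels name no mouse for these cells, so they count as 1 sample and no test was made. Mpo was above 1 FPKM in 15 of 21 Bcl11b+ Spi1+ cells, against 3 of 8 Bcl11b+ Spi1- cells and 77 of 83 Bcl11b- Spi1+ cells. Tyrobp was above it in 18 of 21 cells, against 5 of 8 and 79 of 83, and Skap1 in 12 of 21, against 6 of 8 and 8 of 83. Il7r was above it in 14 of 21 cells, against 7 of 8 and 33 of 83, and Lmo2 in 1 of 21, against 0 of 8 and 27 of 83. For these 5 genes the share in Bcl11b+ Spi1+ cells lay between the shares of the other groups. Fcer1g was found in 18 of 21, against 5 of 8 and 61 of 83. Others ran against the direction called in the 10x sums, among them all S-phase genes called there. Rrm2 was found in 12 of 21 cells, against 3 of 8 Bcl11b+ Spi1- cells, and Uhrf1 in 15 of 21, against 4 of 8. Slbp was found in 20 of 21, against 7 of 8, and E2f8 in 6 of 21, against 2 of 8. Sox4 was found in 17 of 21, against 8 of 8. The shares of Orc6, Fam111a, Lgals1, Lst1, Bex6 and Ccl5 also ran against the 10x direction.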

How the data were processed

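UMI counts in the 10x matrices were deposited by the authors and, per the submitters' processing notes, made with Cell Ranger 2.0; no doublet removal is given in the sources used here and no caller was run. Bulk FPKM values were deposited by the authors; the notes name STAR 2.4.0, RSEM 1.2.25, HOMER and mm10. The C1 values are the authors' deposited FPKM. The members and gene lists were chosen with earlier results of these data known.

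In each library raw UMI counts were summed over 4 groups of Il2ra+ cells (Bcl11b and Spi1 each present or absent, Cd3 UMIs under 3), drawn in 5 depth bins to the depth of the Bcl11b+ Spi1+ cells with seed 1. The 8 sums entered a single fit in edgeR 4.0.16 (quasi-likelihood, TMM, filterByExpr, R 4.3.3) with the library as a term, since sums of the same number come from the same library. A gene counted as called below 0.05 after Benjamini-Hochberg adjustment, without Il2ra, Bcl11b, Spi1, Cd3d, Cd3e and Cd3g, which were not tested. The variance of folds between libraries was 1.151 and 1.081 times counting variance in the comparisons with Bcl11b+ Spi1- and Bcl11b- Spi1+ cells, over genes with at least 20 UMIs per sum. The common dispersion, the spread beyond counting error, was 0.000318. The estimate over all genes carried 1716 prior degrees of freedom, against 3 residual degrees of freedom for a single gene.

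Genes were named by rule: the 12 strongest called changes in each direction at a mean log2 CPM of 5 or more, given that both libraries shared the sign, the listed T-lineage and progenitor regulators, and up to 4 examples per list. Genes outside it, such as Prss2, were named after their values were seen. Bulk values were tested with limma 3.58.1 (trend) on log2(FPKM + 1) in all 12 libraries with population and kit as terms, for genes above 1 FPKM in at least 2 libraries. Folds on this scale understate changes of low genes. Deviations of same-numbered DN2a libraries correlated at 0.919, 0.937 and 0.982, so the blocked count is printed beside the main one. In bulk, 100% of low values came out as whole reads within 0.1 read. Intervals are exact binomial (Clopper-Pearson) or exact Poisson at 95%. Promoter windows and coordinates come from RefSeq (GRCm38.p6) and the gene annotation on mm10.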

Additional observations from a re-analysis of the deposited data

How the results depend on the processing

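Shares here are of genes tested in each setting. Against Bcl11b+ Spi1- cells, 0.376% called (38 genes) became 0.0099% with DESeq2 (1 gene), 0% with no replicate block (321 genes at an unadjusted p under 0.05), 0.0821% with each cell thinned to 4000 UMIs, 0.0751% with the rule applied after thinning, 0.0720% with Bcl11b of at least 2 UMIs, 5.38% with no Cd3 limit, 0.171% with Cd3 at 0, 0.219% with stricter cell filters (1500 genes, 5% mitochondrial UMIs), 0.591% without cells above the 95th UMI percentile, 0.0130% without cells above the median cell-cycle share (1 gene), and 0.175% to 0.438% without a library. Against Bcl11b- Spi1+ cells, 8.83% became 2.14% with DESeq2, 1.42% with no replicate block, 5.71% thinned, 1.76% with the rule after thinning, 1.89% with Spi1 of at least 2 UMIs, 3.15% by cell cycle, and 2.74% to 3.59% without a library. For the genes that set the position scale, 12.5% became 3.15% with DESeq2, 3.04% with no replicate block, 18.2% with no depth matching, 5.73% with Spi1 of at least 2 UMIs, 21.1% with no Cd3 limit, 4.09% by cell cycle and 6.20% to 7.25% without a library. The bulk share of 2.79% became 7.02% with the replicate block, 0.981% with no filter, 0.0330% with no kit term and 1.33% to 2.11% without a library. The cause was not tested.

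Log2 folds turned for Hist1h2ap (0.0027, thinned), Fyb (0.0077, rule after thinning), Ccnb1 (-0.094, no Cd3 limit), and by cell cycle for Slbp (0.063), Fbxo5 (0.73) and Orc6 (0.23). Against Bcl11b- Spi1+ cells they turned for Isg15 (0.24) and Nkg7 (0.061) with the rule after thinning, Pcna (-0.052) and Mki67 (-0.083) with Spi1 of at least 2 UMIs, and Pcna (-0.042) and Ung (-0.11) by cell cycle. Of 526 refits of 30 named genes against Bcl11b+ Spi1- cells 254 kept the call, and of 1251 refits of 72 genes against Bcl11b- Spi1+ cells 1043 did. The share of cells in the rule became 2.20% and 2.21% after thinning and 2.23% and 1.28% with Spi1 of at least 2 UMIs. In library 2 it was 6.11% with the stricter cell filter and 5.85% with no Cd3 limit. The C1 count became 10 above 5 FPKM. Fits without a library leave 1 sum in each group compared and take the spread from the other groups.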
